A study of Mus musculus with 14 samples.

Results

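The genes that encode the subunits of the constitutive proteasome were examined in the medial prefrontal cortex of mice after repeated social defeat. A gene was taken when its array probe carried a RefSeq transcript whose symbol starts with Psma, Psmb, Psmc or Psmd followed by a number. The 3 subunits that are specific to the immunoproteasome, Psmb8, Psmb9 and Psmb10, were left out of the set and are given for comparison. The rule found 37 genes among 20887 named genes on the array, and where a gene had several probes the brightest stood for it. Of these, 35 could be tested among 14453 genes. One tested gene, Psmc3ip, shares the prefix but encodes a meiotic recombination factor, which leaves 36 proteasome genes, 34 of them tested. Among these, Psmd5, Psmd9 and Psmd10 encode chaperones that help to assemble the 19S particle and are counted here in its non-ATPase class, though they are not subunits of the finished particle.

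The proteasome is the main protease for proteins that are tagged with ubiquitin. Its 20S core is a barrel of alpha rings, which gate the entry, and beta rings, which carry the peptidase sites. The 19S regulatory particle caps the barrel: its base holds a ring of ATPases that unfold the substrate, and its lid carries the enzyme that removes ubiquitin. In neurons the proteasome takes part in protein turnover at synapses. In many cells a shortage of proteasome activity raises the transcripts of nearly all subunits together, through the transcription factor Nfe2l1.

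Expression was measured with 1-colour Agilent arrays in 14 wild-type C57BL/6 mice, 1 mouse to an array. The 5 naive mice had only been moved between cages. The other mice went through repeated social defeat stress and were labelled by behaviour as susceptible (6 mice) or resilient (3 mice). All were perfused 4 h after the last session, the tissue was taken with a 1.5 mm punch, and 35 ng of RNA was used per array. The labels give no age, and they mention more than 1 experiment with different mice without saying which mouse belongs to which.

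A level is the log2 signal minus the 75th percentile of log2 signal on that array, so a value of 0 is the level of the 75th percentile and a difference of 1 is a doubling. That percentile lay between 7.25 and 9.24 over the 14 arrays, and between 48.0% and 65.4% of spots were well above background. Every group was present on slides 1 and 2 of the 3 slides, and no resilient mouse was on slide 3, which was read by the scanner on another day. The arrays of naive mice filled one row of the slides and those of defeated mice the other, so that row and defeat cannot be told apart. All 6 markers each of neurons, of cortical excitatory neurons and of inhibitory neurons were above background on every array, as the tissue label has it. So were 5 of 6 markers of striatal neurons. The tissue is a mixture, and fewer cells of a type and less RNA per cell cannot be told apart. All differences were tested with limma over all genes and adjusted by Benjamini-Hochberg, and the 2 comparisons with naive mice share those 5 mice.

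The promoters of 5 of the genes are shown first. Psmb5 with Psmb6 and Psmc4 with Psmd14 were the pairs whose levels followed each other most closely over the mice, and Psmd6 is a further gene that rose with slide as a block. Psmb5 and Psmb6 encode peptidase subunits of the core, Psmc4 encodes an ATPase of the base, and Psmd6 and Psmd14 encode lid subunits. Each run is the 250 bases before the start site, 5′ to 3′, from RefSeq on build GRCm38.p6. Capitals mark a match, on either strand, to one of 4 motifs: the antioxidant response element core TGACNNNGC, the CCAAT box CCAAT, the ETS core CCGGAAGT, or the nuclear respiratory factor 1 site. The windows are chr14:54617996-54618245 (minus strand) for Psmb5, chr11:70525107-70525356 (plus strand) for Psmb6, chr14:14120946-14121195 (minus strand) for Psmd6, chr2:61711444-61711693 (plus strand) for Psmd14 and chr7:28050093-28050342 (minus strand) for Psmc4.
Psmb5: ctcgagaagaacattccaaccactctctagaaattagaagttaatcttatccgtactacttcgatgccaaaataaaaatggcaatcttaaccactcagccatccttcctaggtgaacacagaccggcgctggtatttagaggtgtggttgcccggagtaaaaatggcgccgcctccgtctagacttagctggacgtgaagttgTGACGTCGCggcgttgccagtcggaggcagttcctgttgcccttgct
Psmb6: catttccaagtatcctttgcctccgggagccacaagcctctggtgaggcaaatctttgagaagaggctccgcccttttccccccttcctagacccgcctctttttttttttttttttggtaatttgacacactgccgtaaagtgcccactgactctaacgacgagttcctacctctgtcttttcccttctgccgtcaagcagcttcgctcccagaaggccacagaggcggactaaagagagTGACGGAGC
Psmd6: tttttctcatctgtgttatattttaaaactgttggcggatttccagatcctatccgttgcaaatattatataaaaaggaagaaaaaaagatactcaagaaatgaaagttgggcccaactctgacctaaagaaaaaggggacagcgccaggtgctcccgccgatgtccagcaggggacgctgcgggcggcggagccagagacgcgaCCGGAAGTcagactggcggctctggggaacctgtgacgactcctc
Psmd14: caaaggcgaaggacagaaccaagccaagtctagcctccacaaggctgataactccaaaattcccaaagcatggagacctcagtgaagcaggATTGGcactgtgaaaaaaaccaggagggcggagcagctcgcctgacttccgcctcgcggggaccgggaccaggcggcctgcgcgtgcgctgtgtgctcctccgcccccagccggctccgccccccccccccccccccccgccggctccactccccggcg
Psmc4: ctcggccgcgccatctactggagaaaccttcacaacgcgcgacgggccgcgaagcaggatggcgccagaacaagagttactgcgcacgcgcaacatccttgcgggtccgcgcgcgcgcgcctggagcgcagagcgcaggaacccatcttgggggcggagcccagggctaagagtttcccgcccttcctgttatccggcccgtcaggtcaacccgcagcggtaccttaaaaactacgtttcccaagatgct
Both core genes hold a match to the response element core, the element that Nfe2l1 and Nfe2l2 bind. The Psmd6 window holds an ETS core, the Psmd14 window a CCAAT box read on the other strand, and the Psmc4 window none of the 4.

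Over windows of 250 bases before to 50 bases after the start, RefSeq promoters were found for 30 of the 37 genes, 32 promoters in all. The response element core was in 15.6% of them against 12.4% of all 32851 promoters in the table, and the matches belonged to Psmb5, Psmb6, Psmc6, Psmd9 and Psmd12. The CCAAT box was in 40.6% against 37.4%. The ETS core was in 7 of the 32 promoters, 21.9% against 3.89%, and 6 of those 7 belonged to genes of the 19S classes (Psmc1, Psmc2, Psmd6, Psmd12 and Psmd13). The nuclear respiratory factor 1 site, a palindrome that reads the same on both strands, was in the Psma2 promoter alone, 3.13% against 0.971%. In the printed windows no match overlapped another. A match is a run of letters and no measure of binding, and no test was made of these shares.

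Of the 37 genes, 34 were above background on all 14 arrays. Psma8, an alpha subunit known from testis, and Psmb11, a peptidase subunit known from the thymus, were not well above background on any array and were not tested. Psmc3ip was above background on 13 arrays. Every subunit of the standard 26S proteasome that the rule found was therefore measured in each mouse.

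In susceptible against naive mice none of the 35 genes passed an adjusted p of 0.05 in either direction (limma, Benjamini-Hochberg), where 1.64% of all genes were called higher and 0.962% lower. At an unadjusted p under 0.05 there were 6 genes, 17.1% of the set against 24.0% of all genes tested. That order depended on the processing. With quantile normalisation there were 12 genes, 34.3% against 25%, and with normexp background correction 9, 25.7% against 20.4%. Without naive mouse 4 there were 11, 31.4% against 24.9%. In most other alternatives the share of the set was the lower one. For none of the 35 were the susceptible mice all above or all below the naive mice, where 2.49% and 1.64% of all genes were. The median difference over the set was 0.07 against 0.02 over all genes, and 28 of the 35 lay above 0.

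For 29 of the 35 genes (82.9%) the whole 95% interval of the susceptible minus naive difference lay within 0.5 of 0 on the log2 scale, that is within 1.41-fold, against 50.9% of all genes. That held for all 14 tested genes of the 20S core and for 14 of the 20 genes of the 19S classes, and the interval reaching farthest from 0, that of Psmd14, went to 0.75. The spread between mice of the same group was also small, with a median SD of 0.16 over the set against 0.23 over all genes. In these comparisons all genes were not matched to the set for signal level, and the part of signal level was not tested.

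In resilient against naive mice, again none of the 35 passed (limma, Benjamini-Hochberg), where 0.083% of all genes were called higher and 0.0623% lower. At an unadjusted p under 0.05 there were 3 genes, 8.57% against 20.3% of all genes. None of the 35 had groups that did not overlap, where 8.32% of all genes were higher and 6.41% lower in all 3 resilient mice. The median difference was 0.07 against 0.02 over all genes, and 27 of the 35 intervals (77.1%) lay within 0.5 of 0.

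In susceptible against resilient mice none of the 35 passed and none reached an unadjusted p under 0.05 (limma), where 0% of all genes were called higher, 0% lower and 0.754% had an unadjusted p under 0.05. No gene of the set had groups that did not overlap, where 0.311% of all genes were higher and 0.318% lower. The differences ran from -0.13 for Psma5, an alpha subunit, to 0.28 for Psmb2, a beta subunit, and 33 of the 35 intervals (94.3%) lay within 0.5 of 0. A p above the threshold does not show that the groups are alike: the interval that reached farthest from 0, that of Psmb2, ran from -0.06 to 0.63.

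**Figure D1:**
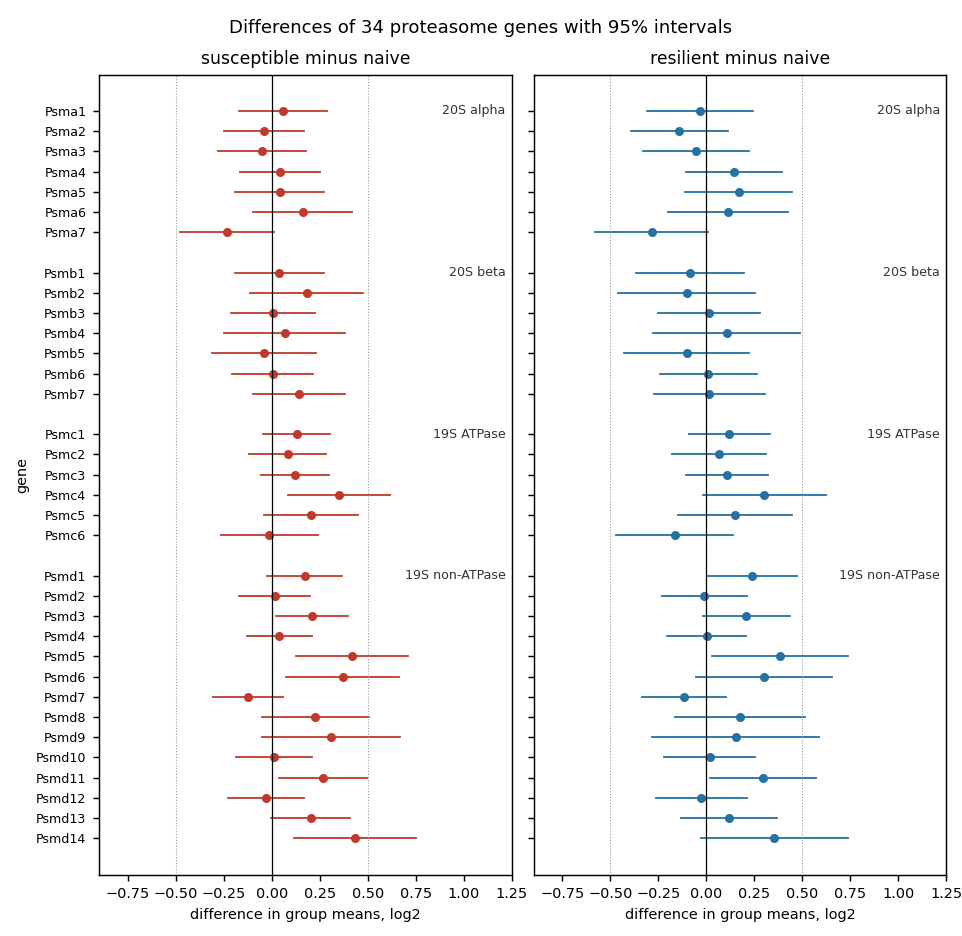
Differences in group means on the log2 scale for the 34 tested proteasome genes, susceptible minus naive on the left and resilient minus naive on the right, with 95% intervals from limma and dotted lines at 0.5 either side of 0. The 14 core genes lie around 0, with medians of 0.04 and -0.01, and most of the 20 genes of the 19S classes lie to its right, with medians of 0.19 and 0.13.

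By role, the alpha subunits had a median susceptible minus naive difference of 0.04 with 4 of 7 above 0, and the beta subunits 0.04 with 6 of 7 above 0. The ATPases of the base had a median of 0.13 with 5 of 6 above 0, and the non-ATPase class, which counts 3 assembly chaperones with the lid and base subunits, 0.21 with 12 of 14 above 0. In resilient minus naive mice the medians of the 4 classes were -0.03, 0.01, 0.11 and 0.16. All 6 genes with an unadjusted p under 0.05 in susceptible mice belonged to the ATPase and non-ATPase classes, among them the chaperone gene Psmd5, and none passed after adjustment.

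Within slides the core and the 19S classes gave different medians. The core median of susceptible minus naive was 0.19 on slide 1, -0.13 on slide 2 and 0.08 on slide 3. The median of the 19S classes was 0.24, 0.18 and 0.13 on the same slides, with 17, 16 and 16 of their 20 genes above 0. The difference between core and 19S classes was not tested, since the genes of each share their mice.

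The alpha subunits form the gate of the barrel. Psma7, one of them, had the only susceptible minus naive difference of the core beyond 0.2 in size. Its level was 4.68, 4.98, 5.24, 4.72 and 4.71 in the naive mice, 4.44, 4.63 and 4.77 (lowest, median, highest) in the susceptible mice, and 4.70, 4.41 and 4.64 in the resilient mice. One naive mouse was well above the rest and the groups overlapped. The difference was -0.23 ± 0.11 (SE, limma adjusted p = 0.229) in susceptible and -0.29 ± 0.14 (adjusted p = 0.262) in resilient mice. It was 0.00 on slide 1, -0.52 on slide 2 and -0.08 on slide 3.

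Psma6, another alpha subunit, had levels of 2.78, 2.82, 2.54, 3.10 and 2.96 in the naive mice, 2.71, 3.01 and 3.28 (lowest, median, highest) in the susceptible mice and 2.96, 2.93 and 2.96 in the resilient mice. The resilient mice lay inside the range of the naive mice. The susceptible minus naive difference was 0.16 ± 0.12 (SE, limma adjusted p = 0.440).

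None of the 3 standard peptidase subunits passed the threshold. Psmb6, which carries the caspase-like site, had levels of 5.90, 6.04, 6.36, 5.99 and 5.84 in the naive mice, 5.89, 6.02 and 6.16 (lowest, median, highest) in the susceptible mice and 6.10, 5.96 and 6.05 in the resilient mice. Every susceptible and resilient level fell within the naive range. The difference was 0.01 ± 0.10 in susceptible (SE, limma adjusted p = 0.982, 95% interval -0.20 to 0.21) and 0.01 ± 0.12 in resilient mice (adjusted p = 0.973).

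Psmb5, which carries the chymotrypsin-like site, had levels of 6.83, 7.03, 7.26, 6.76 and 6.61 in the naive mice, 6.60, 6.83 and 7.09 in the susceptible mice (lowest, median, highest) and 6.88, 6.68 and 6.83 in the resilient mice. The groups overlapped almost wholly. The difference was -0.04 ± 0.13 in susceptible (SE, limma adjusted p = 0.874) and -0.10 ± 0.15 in resilient mice (adjusted p = 0.751). A second Psmb5 probe gave 0.15 and 0.04.

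Psmb7, which carries the trypsin-like site, had levels of 2.60, 2.45, 2.48, 2.87 and 2.86 in the naive mice, 2.51, 2.80 and 2.99 in the susceptible mice (lowest, median, highest) and 2.73, 2.60 and 2.68 in the resilient mice. In both groups of slide 3 its levels were the highest of their group. The difference was 0.14 ± 0.11 in susceptible mice (SE, limma adjusted p = 0.456) and 0.02 ± 0.13 in resilient mice (adjusted p = 0.963).

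Psmb2, a beta subunit without a peptidase site, had levels of -0.42, -0.34, 0.12, -0.20 and -0.21 in the naive mice, -0.52, 0.05 and 0.24 in the susceptible mice (lowest, median, highest) and -0.49, -0.17 and -0.28 in the resilient mice. The difference of 0.18 ± 0.14 in susceptible mice did not pass (SE, limma adjusted p = 0.446).

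The immunoproteasome subunits take the places of the 3 standard peptidase subunits when they are built in, and in contrast to them Psmb9 fell. Psmb9, the counterpart of Psmb6, had levels of -0.69, -0.83, -0.54, -0.29 and -0.49 in the naive mice, -1.63, -1.46 and -0.83 in the susceptible mice (lowest, median, highest) and -1.77, -1.34 and -1.07 in the resilient mice. The highest susceptible and the lowest naive level were nearly equal, and otherwise the groups stood apart. The difference was -0.81 ± 0.16 in susceptible mice (SE, limma adjusted p = 0.0304) and -0.82 ± 0.19 in resilient mice (adjusted p = 0.0796, not past the threshold). In susceptible mice it was -0.82, -0.84 and -0.71 on slides 1, 2 and 3, and in resilient mice -0.87 and -0.38 on slides 1 and 2. With slide and array brightness both in the fit it was -0.47 (adjusted p = 0.562) in susceptible and -0.22 (adjusted p = 0.993) in resilient mice. With brightness alone as a covariate it was also called lower in resilient mice (-0.87, adjusted p = 0.0297), and with slide as a block it was not (-0.64, adjusted p = 0.0521). With the mouse number as a replicate block it was called there (-0.77, adjusted p = 0.0339). The susceptible call was lost on leaving out naive mouse 3 or 4 or susceptible mouse 1, 2, 4 or 5, with adjusted p up to 0.0698. It held in 22 of 30 alternatives, which do not count slide with brightness, and the highest adjusted p among the 30 was 0.0848. Psmb8, the counterpart of Psmb5, gave -0.50 ± 0.17 (adjusted p = 0.0993) in susceptible mice, and was called lower with slide as a block (-0.46, adjusted p = 0.0479) or with brightness as a covariate (-0.57, adjusted p = 0.0459), but not with both (-0.08, adjusted p = 0.921). Psmb10, the counterpart of Psmb7, gave -0.23 ± 0.12 (adjusted p = 0.251).

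Within each array, Psmb9 relative to Psmb6 was lower by 0.82 on average in susceptible than in naive mice (two-sided exact permutation p = 0.0130, 0.117 after Benjamini-Hochberg over 9 such tests). In resilient mice it was lower by 0.83 (exact p = 0.0357, the smallest that 3 mice against 5 allow, 0.161 after adjustment). None of the 9 ratio tests passed after adjustment. The ratio shows unequal change of the 2 probes and not which of them changed.

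**Figure D2:**
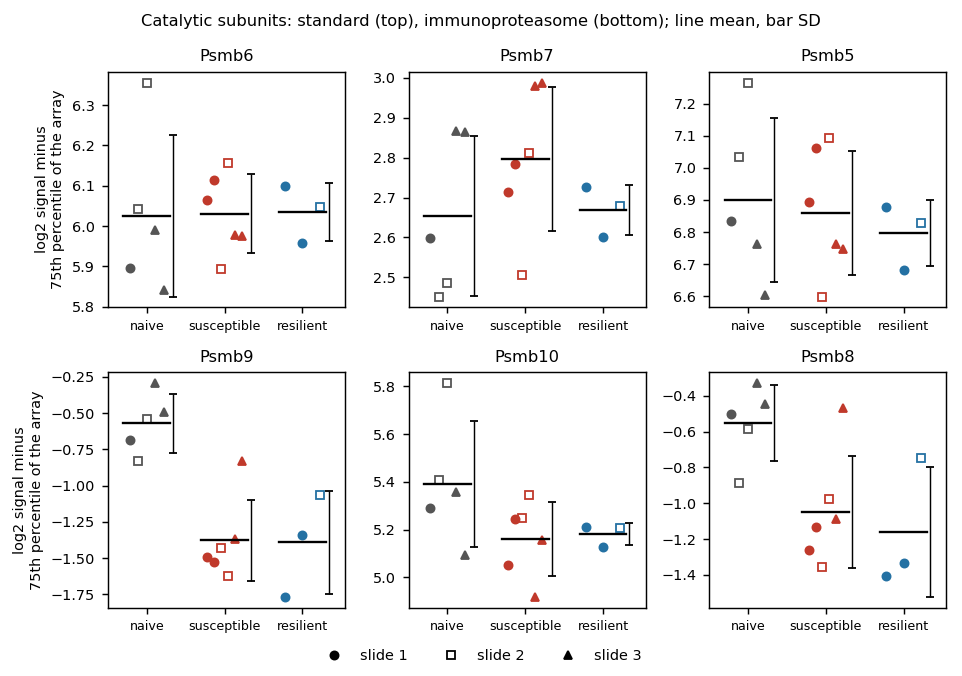
Levels (log2 signal minus the 75th percentile of the array) by mouse of the 3 standard peptidase subunits (top) and of their immunoproteasome counterparts (bottom), by group, with symbols for the slide, lines for means and bars for SD. The standard subunits overlap between groups, while Psmb9 has a mean of -0.57 in naive, -1.38 in susceptible and -1.39 in resilient mice.

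The 19S base threads the substrate into the core. Psmc4, one of its ATPases, had levels of 2.60, 2.47, 2.37, 3.03 and 2.95 in the naive mice, 2.85, 3.02 and 3.21 in the susceptible mice (lowest, median, highest) and 3.07, 2.98 and 2.91 in the resilient mice. The 2 naive mice on slide 3 lay among the defeated mice and the 3 others below them all. The difference was 0.35 ± 0.12 in susceptible (SE, limma adjusted p = 0.113) and 0.30 ± 0.15 in resilient mice (adjusted p = 0.275).

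Psmc5, another ATPase, had levels of 4.42, 4.32, 4.73, 4.16 and 3.98 in the naive mice, 4.43, 4.53 and 4.60 in the susceptible mice (lowest, median, highest) and 4.47, 4.39 and 4.55 in the resilient mice. Naive mouse 3 was above all defeated mice and the 4 other naive mice were below all susceptible mice. The difference was 0.21 ± 0.11 in susceptible mice (SE, limma adjusted p = 0.285). The other ATPases, Psmc1, Psmc2, Psmc3 and Psmc6, had differences from -0.01 to 0.13.

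Among the non-ATPase subunits, Psmd14 is the lid's deubiquitinase, which cuts ubiquitin from the substrate before it is degraded. Its levels were 0.63, 0.72, 0.26, 1.20 and 1.17 in the naive mice, 1.05, 1.23 and 1.40 in the susceptible mice (lowest, median, highest) and 1.16, 1.17 and 1.11 in the resilient mice. As with Psmc4, the naive mice on slide 3 lay among the defeated mice and the other naive mice below them all. The difference was 0.43 ± 0.15 in susceptible (SE, limma adjusted p = 0.106) and 0.35 ± 0.18 in resilient mice (adjusted p = 0.284).

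Psmd5 encodes a chaperone that helps to assemble the base and leaves the finished particle. Its levels were 0.36, 0.11, 0.21, 0.67 and 0.83 in the naive mice, 0.72, 0.78 and 1.07 in the susceptible mice (lowest, median, highest) and 0.75, 1.03 and 0.67 in the resilient mice. It had the smallest adjusted p of the set, 0.0962 in susceptible mice, with a difference of 0.42 ± 0.14 (SE, limma) and all 6 mice above the naive mean. In resilient mice the difference was 0.38 ± 0.17 (adjusted p = 0.213). Leaving out naive mouse 5 brought the susceptible difference to an adjusted p of 0.0466, so that 1 gene of the set passed there. Of all 14455 genes tested in that fit, 357 were called higher and 225 lower.

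The lid as a whole, counted over 8 genes after the values had been seen, had a median susceptible minus naive difference of 0.22 and a resilient minus naive difference of 0.19. The 3 tested base subunits without ATPase activity, Psmd1, Psmd2 and the ubiquitin receptor Psmd4, had a median of 0.04 and 0.00. The 3 assembly chaperones among the Psmd genes, Psmd5, Psmd9 and Psmd10, had 0.31 and 0.15. The lowest lid gene was Psmd7, the partner of Psmd14 in the deubiquitinating pair, at -0.12 ± 0.09 in susceptible mice (SE, limma adjusted p = 0.395).

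**Figure D3:**
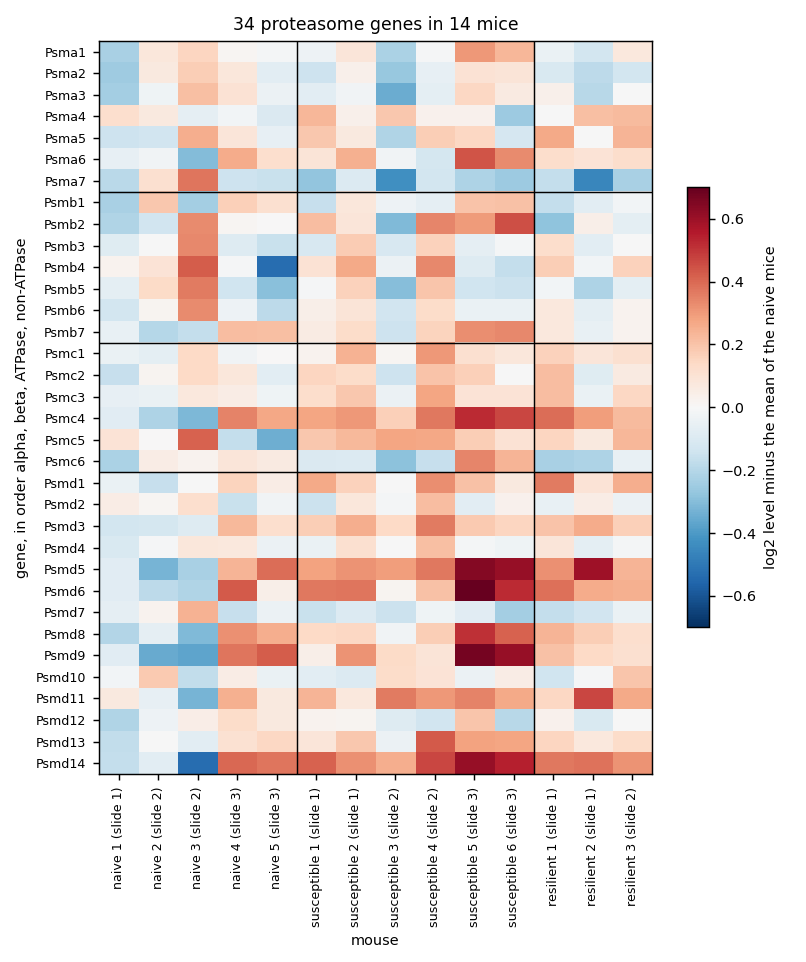
Level of each of the 34 tested proteasome genes in each of the 14 mice minus the mean of the naive mice, on the log2 scale, with lines between groups of mice and between alpha, beta, ATPase and non-ATPase genes. Psmc4, Psmd5, Psmd6, Psmd8, Psmd9 and Psmd14 are higher on average in the susceptible than in the naive mice, though not in every mouse. Psmd8 in susceptible mouse 3, at 1.94, is below its naive mean of 1.97. Among naive mice the 6 genes are highest in those of slide 3.

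With slide as a block, which compares mice within slides, 6 genes rose in susceptible against naive mice (limma, adjusted p under 0.05), where 8.83% of all genes were called higher and 6.48% lower. All 6 belong to the ATPase and non-ATPase classes: Psmd5 (difference 0.43, adjusted p = 0.0108), Psmc4 (0.36, 0.0155), Psmd14 (0.45, 0.0189), Psmd6 (0.38, 0.0189), Psmd9 (0.33, 0.0189) and Psmd8 (0.25, 0.0420). Psmd6 and Psmd8 are lid subunits and Psmd9 is a chaperone of base assembly, and these 3 are named because of these values. As a share of the set, 6 of 35 is 17.1%, and no gene of the set was called lower. At an unadjusted p under 0.05 there were 10 genes, 28.6% of the set against 34.3% of all genes.

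In resilient against naive mice with slide as a block 2 genes rose, Psmd5 (0.51, adjusted p = 0.0346) and Psmc4 (0.41, 0.0476), where 2.03% of all genes were called higher and 1.5% lower (limma). Psmd14 came to 0.0562 and Psmd6 to 0.0593. Without 1 mouse the count of 2 went to between 0 and 4. It was 0 without naive mouse 1, 2 or 4, susceptible mouse 2 or 5, or any of the 3 resilient mice. It was 1 without naive mouse 3 or 5 or susceptible mouse 1 or 3. It was 4 without susceptible mouse 6, where 693 of 14460 genes were called higher and 488 lower.

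Psmd6 had levels of 1.73, 1.63, 1.60, 2.24 and 1.86 in the naive mice, 1.83, 2.18 and 2.54 in the susceptible mice (lowest, median, highest) and 2.20, 2.07 and 2.06 in the resilient mice. Psmd8 had levels of 1.76, 1.90, 1.66, 2.29 and 2.22 in the naive mice, 1.94, 2.13 and 2.48 in the susceptible mice and 2.20, 2.14 and 2.08 in the resilient mice. Psmd9 had levels of -0.59, -0.86, -0.88, -0.13 and -0.08 in the naive mice, -0.47, -0.29 and 0.16 in the susceptible mice and -0.30, -0.37 and -0.40 in the resilient mice. In all 3 genes the naive mice of slide 3 were the highest naive mice and the susceptible mice of slide 3 the highest susceptible mice. The second probe of Psmd9 gave 0.30 in susceptible and 0.12 in resilient mice, against 0.31 and 0.15 for the brightest.

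Within slides the susceptible minus naive difference of Psmd5 was 0.38, 0.61 and 0.31 on slides 1, 2 and 3. That of Psmc4 was 0.37, 0.53 and 0.19, and that of Psmd14 0.53, 0.66 and 0.19. Psmd6 gave 0.45, 0.31 and 0.39, Psmd8 0.35, 0.26 and 0.18, and Psmd9 0.25, 0.47 and 0.24. Each of the 6 was higher in susceptible mice on each slide, with 1 or 2 mice a group on a slide. The 6 were picked by the fit that uses these same differences, so this is no separate support.

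**Figure D4:**
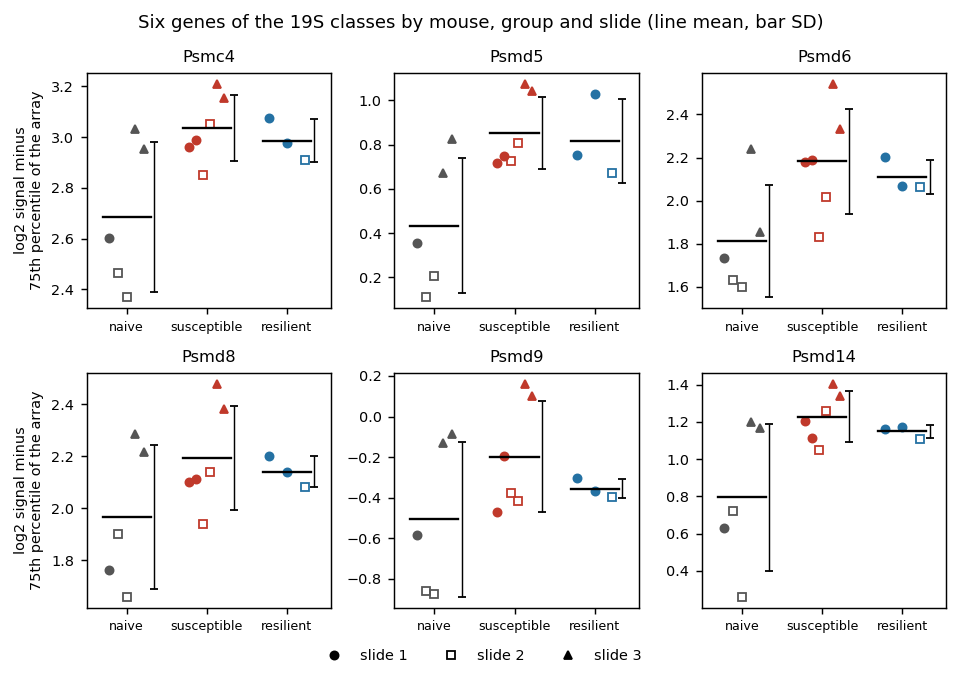
Levels (log2 signal minus the 75th percentile of the array) by mouse of the 6 genes called with slide as a block, by group, with symbols for the slide, lines for means and bars for SD. In each gene the naive mice of slide 3 (triangles) are the 2 highest naive mice, and the means of susceptible and resilient mice lie above the naive mean.

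The same 6 genes were higher on the brighter arrays of the naive mice, brightness being the 75th percentile of log2 signal. The 2 naive arrays on slide 3 had percentiles of 8.54 and 8.64, and the 3 other naive arrays lay between 7.25 and 7.36. Slide 3 was read on another day, so brightness, slide and scan day cannot be told apart among naive mice. Among these 5 undefeated mice, levels on slide 3 were higher than on the other slides by 0.51 for Psmc4, 0.65 for Psmd14, 0.52 for Psmd5, 0.39 for Psmd6, 0.48 for Psmd8 and 0.67 for Psmd9. Over the whole set the median of that difference was 0.02. The 6 were picked by a fit that removes differences between slides, which favours genes with a large shift between slides. Defeated mice had brighter arrays on average, with a mean percentile of 8.22 ± 0.61 in susceptible and 8.03 ± 0.12 in resilient mice against 7.82 ± 0.71 in naive mice (SD, n = 6, 3 and 5).

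With array brightness as a covariate in place of slide, none of the set was called in either direction in susceptible against naive mice (limma), where 6.08% of all genes were called higher and 4.05% lower. At an unadjusted p under 0.05 there were 5 genes, 14.3% of the set against 30.6% of all genes. None was called in resilient against naive mice, where 4.61% and 3% of all genes were, and 6 had an unadjusted p under 0.05, 17.1% against 29.6% of all genes. The adjusted p in susceptible mice became 0.0644 for Psmd5, 0.0782 for Psmd14, 0.0831 for Psmc4, 0.101 for Psmd6, 0.373 for Psmd9 and 0.434 for Psmd8. The difference of Psmd8 went from 0.25 with slide as a block to 0.09, and that of Psmd9 from 0.33 to 0.13. With slide and brightness together no gene of the set and none of the 14453 genes was called (limma), and 4 genes of the set had an unadjusted p under 0.05 in susceptible mice, 11.4% against 8.42% of all genes. On slides 1 and 2 every naive array was dimmer than every defeated array. Brightness and defeat can therefore hardly be told apart in that fit. In susceptible mice the SE of Psmd5 went from 0.08 with slide alone to 0.14 with both. The differences with both were 0.48 for Psmd5, 0.36 for Psmd9, 0.32 for Psmc4, 0.34 for Psmd14, 0.28 for Psmd6 and 0.17 for Psmd8.

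Leaving out each mouse in turn, with slide as a block, left 3 to 7 genes called in susceptible against naive mice. The lowest count came without naive mouse 1, where 375 of 14469 genes were called higher and 328 lower. Psmd5, Psmc4 and Psmd9 kept an adjusted p under 0.05 in every such fit, with highest values of 0.0377, 0.0490 and 0.0461 (limma). The highest values of Psmd6, Psmd14 and Psmd8 were 0.0577, 0.0586 and 0.127.

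**Figure D5:**
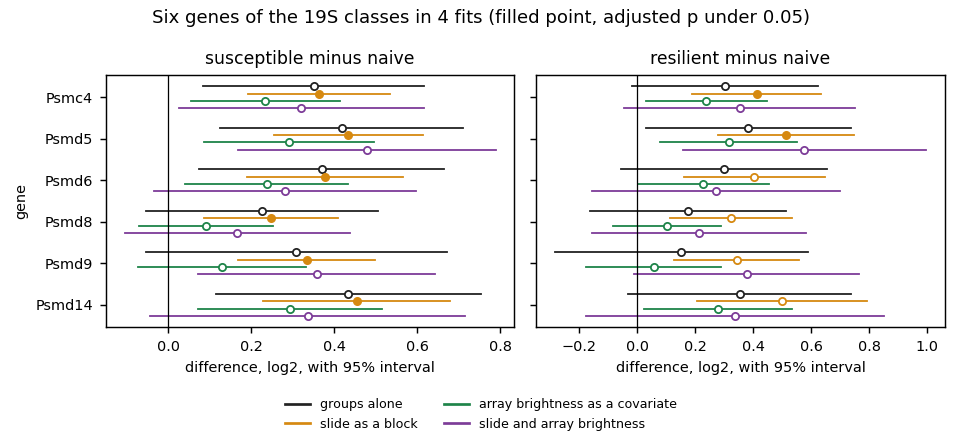
Differences on the log2 scale with 95% intervals for the 6 genes in 4 limma fits (groups alone, slide as a block, array brightness as a covariate, and slide with brightness), susceptible minus naive on the left and resilient minus naive on the right. Filled points have an adjusted p under 0.05, which holds for slide as a block alone: all 6 genes in susceptible and Psmc4 and Psmd5 in resilient mice.

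Over the 14 mice, after group means were removed, the members of the set varied together more than genes in general. The median Pearson r over pairs of the 35 genes was 0.20, against 0.04 over all genes, and these are descriptions over mice that share slides and scans. It was 0.43 among the alpha and 0.36 among the beta subunits, 0.39 within the core, 0.24 among the ATPases and 0.27 in the non-ATPase class, 0.21 within the 19S classes together and 0.19 between them and the core. Among the lid genes it was 0.45 and among the 3 chaperones -0.10. The closest pairs were Psmc4 with Psmd14 and Psmb5 with Psmb6, both at 0.93. The pair farthest below 0 was Psmc5 with Psmd14, at -0.92. With array brightness, r was 0.86 for Psmc4, 0.82 for Psmd14, -0.71 for Psmc5, -0.59 for Psmb5 and -0.44 for Psmb6. Over the whole set the median r with brightness was 0.32, against 0.095 over all genes. It was above 0.8 for 22.9% of the set and 8.59% of all genes. The part of brightness in the r over the set and in these pairs was not tested.

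Where a gene had 2 probes, they did not always give the same difference. The set had 45 probes, and 8 genes had 2. For Psmd12, a lid subunit, the brightest probe gave -0.03 in susceptible and -0.03 in resilient mice and the other 0.43 and 0.45. For Psma4, an alpha subunit, the brightest gave 0.04 and the other 0.28 in susceptible mice. Psmc1, Psmc2 and Psmc3, all ATPases, gave 0.13, 0.08 and 0.12 with the brightest probe and 0.14, 0.04 and 0.21 with the other. For Psmd10, known as gankyrin, the resilient difference was 0.02 with the brightest and -0.34 with the other probe.

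Other genes of the pathway were taken from lists, whose choice is described with the processing. Of 6 shuttle factors, which carry ubiquitinated proteins to the proteasome, 2 rose in susceptible against naive mice, where 1.64% of all genes were called higher. Ubqln1 rose by 0.32 ± 0.07 (SE, limma adjusted p = 0.0358), from 1.13 to 1.26 in naive to 1.43 to 1.60 in susceptible mice. All 6 susceptible mice were above all naive mice, as they were for 2.49% of all genes. Rad23b rose by 0.48 ± 0.11 (adjusted p = 0.0424), with 1 susceptible mouse inside the naive range. The call was lost in 14 of 30 alternatives for Ubqln1, with adjusted p up to 0.163, and in 15 of 30 for Rad23b, with adjusted p up to 0.110, among them the mean over the probes of Rad23b, which gave 0.21. Another shuttle factor, Ddi2, the protease that activates Nfe2l1, gave 0.54 ± 0.14 (adjusted p = 0.0586). In resilient mice the differences were 0.37 for Ubqln1, 0.56 for Rad23b and 0.74 for Ddi2, none past the threshold (adjusted p = 0.0775, 0.0864 and 0.0837). With slide as a block Ddi2 was also called higher in susceptible mice (0.50, adjusted p = 0.0164) and Ubqln1 in resilient mice (0.37, adjusted p = 0.0416). In that fit 8.83% of all genes were called higher in susceptible and 2.03% in resilient mice. With the mouse number as a replicate block Ddi2 was called in resilient mice (0.68, adjusted p = 0.0390). With brightness as a covariate Ubqln1, Rad23b and Ddi2 were called higher in both comparisons (highest adjusted p 0.0303). There 6.08% of all genes were called higher in susceptible and 4.61% in resilient mice. With slide and brightness together none of the 3 was called, and none of all genes was.

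Leaving out any of several single mice ended the calls of the shuttle factors. For Ubqln1 these were naive mouse 1, 2, 3 or 4, susceptible mouse 1, 2, 3, 4 or 5, or resilient mouse 2. For Rad23b they were naive mouse 2, 3 or 4, susceptible mouse 1, 2, 3, 4 or 5, or any resilient mouse. The size of the difference stayed between 0.30 and 0.34 for Ubqln1 and between 0.42 and 0.54 for Rad23b over all fits without 1 mouse.

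None of the other lists had a gene past the threshold in either comparison with naive mice (limma). With slide as a block Psmg3 (0.29, adjusted p = 0.0298) and Maff (0.94, 0.0412) were called higher in susceptible mice and Rps27a (-0.54, 0.0190) lower. Of all genes 8.83% were called higher and 6.48% lower there. In resilient mice Rps27a (-0.68, 0.0424) was called lower in that fit, where 1.5% of all genes were. Among 5 tested assembly chaperones, all of the core, the smallest p belonged to Psmg3, at 0.30 ± 0.09 (adjusted p = 0.0676), and Psmg2, at 0.24 ± 0.12 (adjusted p = 0.221). Among 5 activators and inhibitors of the core it belonged to Psme2, at -0.22 ± 0.11 (adjusted p = 0.222), and Psme1, at 0.15 ± 0.10 (adjusted p = 0.350), which together form the 11S cap. Among 9 other proteasome components it belonged to Usp14, a deubiquitinase of the particle, at 0.20 ± 0.09 (adjusted p = 0.202), and Ube3c, a ubiquitin ligase, at -0.22 ± 0.13 (adjusted p = 0.315).

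Among 7 genes for ubiquitin and the unfoldase p97 with its partners, Rps27a, a ubiquitin fusion gene, gave -0.55 ± 0.18 (SE, limma adjusted p = 0.0975) and Nploc4, a p97 cofactor, -0.34 ± 0.13 (adjusted p = 0.131). Among 5 transcription regulators, Maff, whose probe was above background on 11 of the 14 arrays, gave 0.94 ± 0.27 (adjusted p = 0.0690) and Nfe2l1, the activator of proteasome genes, 0.37 ± 0.15 (adjusted p = 0.157). The Nfe2l1 difference was 0.14 on slide 1, 0.91 on slide 2 and 0.00 on slide 3.

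Markers of other cell types had these median susceptible minus naive differences: -0.36 over 7 astrocyte markers, -0.43 over 6 oligodendrocyte, -0.45 over 5 endothelial, -0.84 over 5 pericyte and -1.05 over 7 meningeal markers. They were -0.11 over 6 microglial, -0.21 over 6 cortical excitatory, 0.21 over 6 general neuronal and 0.25 over 6 inhibitory neuron markers, 1.45 over 3 erythroid and 3.53 over 3 leukocyte markers. Of these, 1 astrocyte, 1 endothelial and 2 leukocyte markers passed the threshold (limma), as did 1 of 6 striatal neuron markers, whose median was 0.22. No marker of the other lists named here did. The summed log2 level of the leukocyte markers ranged from -1.42 to -0.51 in naive, -0.31 to 2.66 in susceptible and -0.33 to 0.96 in resilient mice, and of 5 on the array 1 was above background on all 14 arrays and none was below background on every one. The part of other cell types in the differences of Psmb9 and of the 6 genes called with slide as a block was not tested.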

How the data were processed

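The deposited scanner tables hold spot intensity on a linear scale, background-subtracted by Agilent Feature Extraction 11.0.1.1, per the file headers. The authors' deposited value table holds log2 values of the same arrays and lay 1 constant per array away from the log2 scanner signal (r = 1, column medians -3.09 to -2.74). Its scale and direction follow from that match, and no gene centring was seen. The number of arrays limits the precision.

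Control spots and outlier spots were left out, spots of a probe averaged, the signal taken as log2 and the 75th percentile over spots subtracted. A probe was kept where some group had it well above background on each of its arrays. Accessions were matched without versions to RefSeq names (GRCm38.p6), which named 27509 of 55681 probes, and the brightest probe stood for a gene. Groups were fitted together in limma 3.58.1 (R 4.3.3, lmFit and eBayes), with Benjamini-Hochberg adjustment over 14453 genes. Ratios used exact permutation tests (scipy 1.17.1). The limma fit of groups alone was tested on simulated arrays. P-values set the group differences against the spread between mice, which in the fit of groups alone also holds differences between slides, scan days and array brightness.

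The members and all gene lists were chosen with earlier results of these data known. Named genes were, in each class of subunits, the 2 with the smallest p in susceptible against naive mice, the 3 standard peptidase subunits, and any gene past the threshold, up to 8 in each comparison. Of pathway lists, genes past the threshold or else the 2 with the smallest p were named. Leaving out mice and adding brightness with slide as a block were chosen after seeing the data. Same-numbered naive and resilient mice deviated together in all 3 pairs (r = 0.11 to 0.32), from the data and not from the labels. The number was fitted as a block over all 14 mice as an alternative, though no label says that mice are paired. One gene of the pathway lists is not reported here.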

Additional observations from a re-analysis of the deposited data

Results flagged for a closer look

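Of 70 sets of naive or susceptible levels of a tested gene, 1 held a mouse far from the others of its group. Psmc6, an ATPase of the 19S base, was at 2.07 in naive mouse 1, while the naive median was 2.34 and the highest naive level 2.37. Chance alone gives about 1 such mouse in 20 sets.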

How the results depend on the processing

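In susceptible against naive mice the count of genes called, 0, became 6 with slide or scan day as a block and 1 at an adjusted p under 0.10. Of all 14453 genes, 1276 were called higher and 937 lower with slide, 1448 and 1053 with scan day, and 818 and 605 at that threshold. Without 1 mouse it ranged from 0 to 1. In resilient against naive mice it became 2 with slide and 6 with scan day as a block. There 294 of all 14453 genes were called higher and 217 lower with slide, and 880 and 586 with scan day. With slide as a block the counts of 6 and 2 ranged from 3 to 7 and from 0 to 4 without 1 mouse. They became 0 and 0 once brightness was added, where none of the 14453 genes was called. That fit can hardly tell brightness from defeat, since naive arrays were dimmer than defeated ones on slides 1 and 2. The cause was not tested. The median difference of 0.07 in susceptible mice moved by more than the SD over naive mice, 0.06, to 0.16 with quantile normalisation, 0.15 with normexp, 0.13 with the mean over probes and 0.19 within slide 1. In resilient mice 0.07 became 0.16 with quantile normalisation and 0.14 within slide 1.

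Same-numbered naive and susceptible mice correlated at 0.38, 0.50, 0.00, -0.37 and 0.71, and naive and resilient mice at 0.11, 0.32 and 0.28. Susceptible and resilient mice correlated at 0.25, 0.39 and -0.38. The naive and resilient mice numbered 1 share a slide, as do those numbered 3. The labels name no pairing, and these values do not show that the numbers pair mice of any groups. The block by number covered all 3 groups. With the number as a replicate block 1 gene was called in susceptible mice, Psmd14 (adjusted p = 0.0445, limma), and 0 in resilient mice, where Psmb9 (-0.77, adjusted p = 0.0339) and Ddi2 (0.68, 0.0390) gained a call. Of all 14453 genes, that fit called 808 higher and 900 lower in susceptible mice, and 391 and 337 in resilient mice.

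For 17 named genes in 3 comparisons, 1440 of 1530 alternatives kept the side of the threshold, 37 lost and 53 gained a call, and no called difference changed sign. In 85 of the 1440 the sign changed with neither fit past the threshold. No scaling moved the median of all genes by over 0.1.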
